A study of Glycine max with 2 samples.

Results

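This report describes the Glyma models whose RNA-Seq level was far higher in shoot tips of Clark standard (CS) than in Clark glabrous (CG). A model is a predicted soybean transcript, and a locus is its identifier without the number after the point. The members were chosen from the deposited RPKM values (read numbers scaled to the length of the model and to the size of the library) as models with a mean of the CS and CG values of 1 or higher and a log2((CS + 0.1)/(CG + 0.1)) of 4 or more, which is a 16-fold difference after 0.1 RPKM is added. The rule was met by 107 models of 91 loci, out of 78773 models in the files. They are 0.245% of the 43753 models whose mean reached 1 RPKM. Another 217 of these models (0.496%) differed as much toward CG. Of all that differed 16-fold, 33.0% were thus higher in CS, and 47.8% were once CG was scaled to a median ratio of 1. A difference of 2-fold or more toward CS was seen for 2438 models (5.57%). These same values chose the members, so their levels and ratios are a description without a test. With 1 RPKM added in place of 0.1, 23 of them kept a log2 ratio of at least 4.

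CS is the wild type, with trichomes. CG is the hairless isoline, made by repeated backcrossing of the dominant P1 glabrous allele of line T145 into Clark, so that it can also carry other T145 segments. Each line has 1 RNA-Seq library, made from shoot tips of multiple greenhouse plants about 4 weeks old. No difference between the lines has a replicate check within these RNA-Seq data. The study also counted sequence tags from other plants of these lines, and it reports RNA blots for the BURP gene described below. In a bulk sample, fewer cells of a type and less RNA per cell cannot be told apart.

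Trichomes are hairs that grow out of epidermal cells of leaves and stems. In Arabidopsis their start depends on a complex of the GL1, GL3 and TTG1 proteins, with small MYB proteins such as TRY acting against it. BURP domain proteins are a plant family of mostly secreted proteins, and some members in cotton are tied to the growth of seed fibres, which also grow out of epidermal cells. The soybean genome went through duplications that left many genes in related copies on different chromosomes, and further copies lie next to each other.

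From the steps of the RPKM values the totals used to scale them were recovered, 152791817 alignments for CS and 147273809 for CG. All 107 members had whole alignment numbers. A read could count on up to 25 models, and how far reads of Clark differ from the Williams 82 models they were mapped to was not tested here. Across the 43753 models the log2 CS/CG ratio had a median of -0.34, and the members stood against this background shifted toward CG. The 5 photosynthesis loci of the study's tag list, which mark green shoot tissue, had between 42.0 and 1575 RPKM in CS and between 16.2 and 280.9 RPKM in CG, and none of them was a member.

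The 107 members had a lowest level of 2.00 RPKM, a median of 13.4 RPKM and a highest level of 1484 RPKM in CS. In CG the lowest value was 0, the median was 0.178 RPKM and the highest was 85.6 RPKM. In CG, 87 members were under 1 RPKM and 12 were listed at 0. Any model with a mean of at least 1 that is listed at 0 in CG meets the rule by construction. The median log2 ratio of the members was 4.76, with 65 members from 4 to under 5, 42 at 5 or more and 14 of these at 6 or more. In CS, 51 members (47.7%) were under 10 RPKM, against 73.5% of all models with a mean of at least 1. The rule uses the CS level, so nothing is read from these shares.

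**Figure D1:**
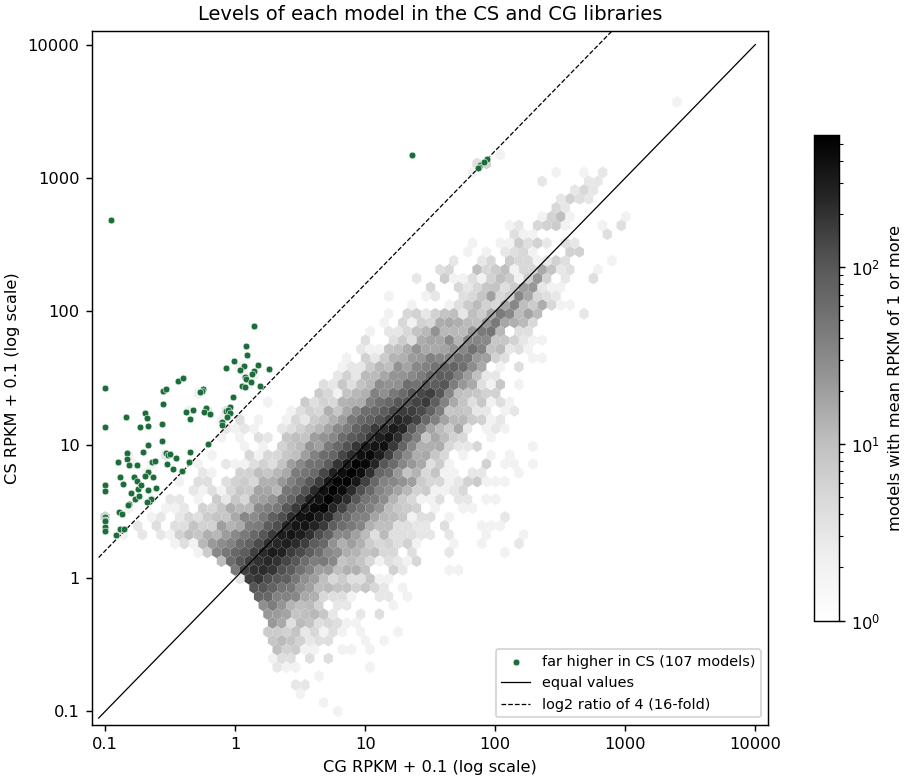
CS RPKM against CG RPKM, each with 0.1 added, on log axes. Grey hexagons count the 43753 models with a mean of at least 1 RPKM, green points are the 107 members, the solid line marks equal values and the dashed line a log2 ratio of 4. Of the members, 87 sit under 1 RPKM in CG, and 7 lie above 100 RPKM in CS.

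The tables at hand give a function for only 2 member loci, and the RefSeq gene table matched 0 of the 91. They are Glyma04g35130, a BURP domain gene on chromosome 4, and Glyma11g07850, the cytochrome P450 CYP84A16 on chromosome 11. In the tag lists used here, these loci are also paired with DGE tags, 16-base sequences next to a DpnII restriction site. A tag is shown for each because it ties the named locus to a piece of its sequence. DGE0000012 is the tag that the study assigns to the last DpnII site of the BURP transcript, and its other tags are not shown. Both are written 5′ to 3′, with no part in capitals.
DGE0000012, Glyma04g35130, sense strand: taccttaatggcatca
DGE0002248, Glyma11g07850, sense strand: attgatgtgagctttt

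Glyma04g35130.1 had 480.4 RPKM in CS and 0.0105 RPKM in CG. These are at least 142173 alignments in CS and 3 in CG on a recovered length of 1937 bases. Its log2 ratio of 12.09 was the largest of all members, and in CS it ranked at place 124 among the 78773 models. The ratio of the deposited values rests on the 3 CG alignments. The exact 95% bounds (Clopper-Pearson) were 15630-fold and 221507-fold, which cover counting error between the libraries only.

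The members with the next largest ratios were its neighbours by number. Glyma04g35150.1 had 26.3 RPKM in CS and 0 in CG, and Glyma04g35120.1 had 13.4 RPKM in CS and 0 in CG. With 3 alignments per library as the approximate limit for a count of 0, the CS level was at least 165-fold higher for Glyma04g35150.1 and at least 84.2-fold higher for Glyma04g35120.1. These limits leave out the counting error of CS, and with it the exact 95% lower bounds were 134.1-fold and 68.0-fold. Their CS levels were 5.48% and 2.79% of that of Glyma04g35130.1, and how far they share reads with it was not tested. Glyma04g35140, a spermidine synthase gene (an enzyme of polyamine synthesis) that the study places in the last intron of the BURP gene, was listed at 0 in CS and had 0.0428 RPKM in CG. Beside the stretch, Glyma04g35110 had a log2 ratio of 0.22 on one side and Glyma04g35160 had 0.31 on the other. The next loci were higher in CG, with 1.57 RPKM in CS and 22.5 RPKM in CG for Glyma04g35170 and 0.732 and 5.33 RPKM for Glyma04g35180.

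Glyma11g07850.1 had 7.29 RPKM in CS and 0.340 RPKM in CG, from at least 2180 and 98 alignments. In Arabidopsis, the enzyme CYP84A1 is a ferulate 5-hydroxylase, which directs lignin precursors toward syringyl units. The function of CYP84A16 was not tested. With a log2 ratio of 4.07, Glyma11g07850.1 was near the lower end of the members.

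Few members were abundant. Only 7 had more than 100 RPKM in CS, and they belong to 4 loci. Glyma15g06270.1 was the highest, with 1484 RPKM in CS and 22.6 RPKM in CG, and it held place 17 in CS and place 5808 in CG. Its CS value was 65.7-fold its CG value (exact 95% interval 61.5 to 70.2, counting error only). The BURP gene Glyma04g35130.1 was another of the 7.

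The other 5 abundant models belong to Glyma05g08590 and Glyma19g01050. The 4 models of Glyma05g08590 ranged from 1208 to 1389 RPKM in CS and from 75.1 to 85.6 RPKM in CG. The 8 models of Glyma19g01050 ranged from 1068 to 1286 RPKM in CS and from 66.9 to 80.9 RPKM in CG. The models of these 2 loci, on chromosomes 5 and 19, thus had much the same levels in each library, and their log2 ratios all lay between 3.97 and 4.02. The threshold of 4 cuts through them, so that 3 models of Glyma05g08590 and 2 of Glyma19g01050 are members. Without these 5 models there are 102 members. Reads that match several models were counted on each, and how far the 2 loci share reads was not tested.

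**Figure D2:**
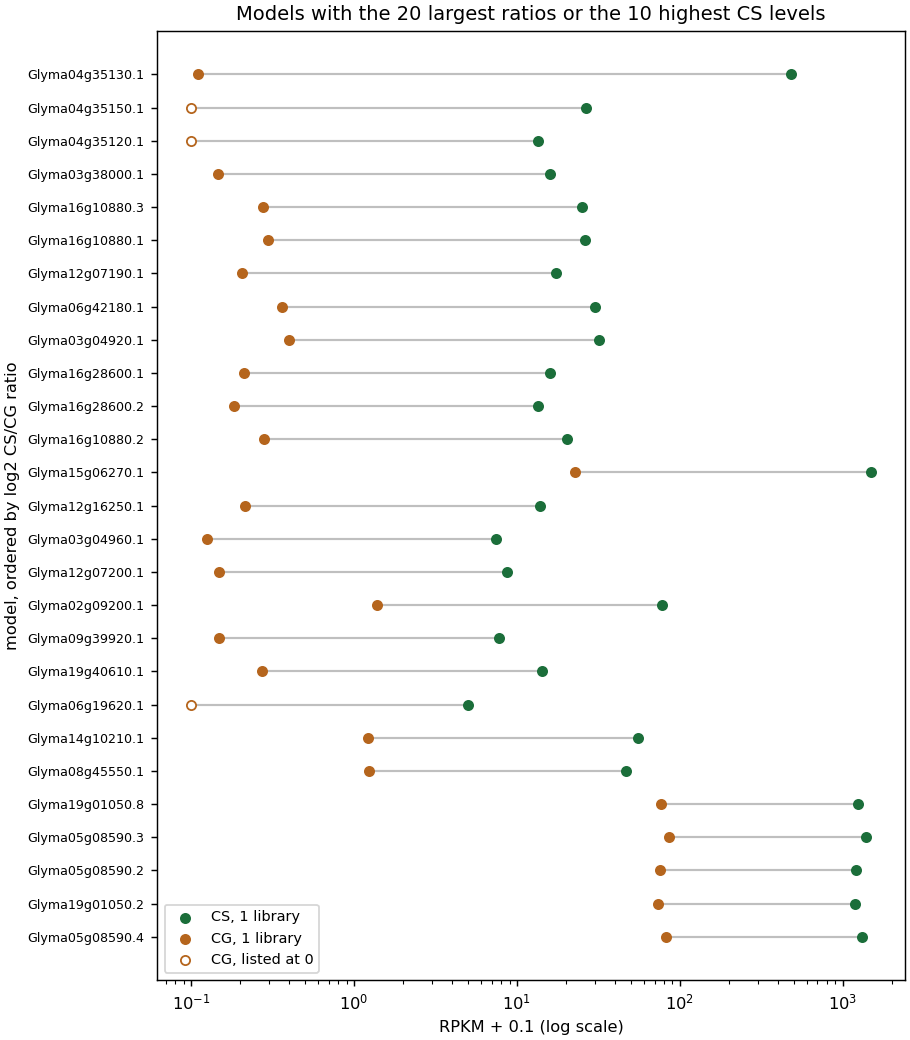
RPKM with 0.1 added, on a log axis, of the 27 models that have the 20 largest log2 ratios or the 10 highest CS levels, ordered by log2 ratio. Each model has a green point for the CS library and a brown point for the CG library, open where CG is listed at 0. The BURP gene Glyma04g35130.1 spans 480.4 RPKM to 0.0105 RPKM, and the models of Glyma05g08590 and Glyma19g01050 lie together with high values in both libraries.

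Outside the stretch of the BURP gene, the largest ratio was that of Glyma03g38000.1, with 15.9 RPKM in CS and 0.0454 RPKM in CG, a log2 ratio of 6.79. The CG value stands for as few as 5 alignments. Glyma16g10880.3 followed, with 25.1 RPKM in CS and 0.177 RPKM in CG and a log2 ratio of 6.50. Glyma12g07190.1 had 17.1 RPKM in CS and 0.104 RPKM in CG, a log2 ratio of 6.40. All of these loci were well covered in CS, with at least 1822 alignments each for the models named, and the CG values set the width of their intervals.

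Glyma06g42180.1 had 29.8 RPKM in CS and 0.260 RPKM in CG, a log2 ratio of 6.38. Glyma03g04920.1 had 31.7 RPKM in CS and 0.296 RPKM in CG, a log2 ratio of 6.33. Glyma16g28600.1 had 15.8 RPKM in CS and 0.110 RPKM in CG, a log2 ratio of 6.24. Each of these has another member close by in the numbering, described below with the runs of neighbouring loci.

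Of the other models with ratios among the 20 largest, Glyma12g16250.1 had 13.7 RPKM in CS and 0.114 RPKM in CG, and Glyma02g09200.1 had 77.3 RPKM in CS and 1.29 RPKM in CG. Glyma09g39920.1 had 7.68 RPKM in CS and 0.0474 RPKM in CG. Glyma19g40610.1 had 14.2 RPKM in CS and 0.172 RPKM in CG. Of these, only Glyma02g09200.1 was above 1 RPKM in CG, and no function is given for any of them in the tables used here.

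The 12 members listed at 0 in CG differ in how much their CS counts can show. Glyma06g19620.1 had 4.90 RPKM in CS from at least 1271 alignments, and its CS level was at least 408-fold higher than the limit in CG. Glyma05g01080.1 had 2.64 RPKM in CS from at least 480 alignments, and Glyma17g10820.1 had 4.40 RPKM from at least 227. At the other end, Glyma07g20540.1 had 2.31 RPKM in CS from as few as 30 alignments on a recovered length of 85 bases, which gives at least 9.64-fold. With the counting error of CS included, the exact 95% lower bounds were 331.6-fold for Glyma06g19620.1 and 7.37-fold for Glyma07g20540.1. Numbers of alignments are the smallest that fit the deposited values.

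The counting error of the remaining 95 members was mostly small beside the size of the ratios. For 85 of them the lower bound of the exact 95% interval of the CS/CG ratio was 16-fold or more. For the other 10 it was lower, down to 8.60-fold. The rule chose the members by these same values, so these counts follow in part from the choice and are no test. In CG, 26 of the 95 had 10 or fewer alignments and 23 had 100 or more. In CS, 100 of the 107 members had 100 or more alignments.

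Just inside the threshold were Glyma05g08590.4, with 1323 RPKM in CS and 82.4 RPKM in CG, Glyma19g01050.2 and Glyma05g08590.2. Just outside it were Glyma05g08590.1, with 1306 RPKM in CS and 81.5 RPKM in CG, Glyma20g36730.1, with 5.48 RPKM in CS and 0.249 RPKM in CG, and Glyma08g18170.3, with 12.9 RPKM in CS and 0.715 RPKM in CG. Their log2 ratios ran from 3.99 to 4.00 outside and began at 4.00 inside. Glyma08g18170 lies close in number to the member locus Glyma08g18200.

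The identifiers place the 91 member loci on all 20 chromosomes and none on a scaffold. Relative to the loci with a mean of at least 1 RPKM, member loci made up 0.259%. The share was highest on chromosome 16, with 7 of 1302 loci, chromosome 12, with 8 of 1492, and chromosome 15, with 9 of 1707. It was lowest on chromosome 7, with 1 of 1773 loci, chromosome 11, with 1 of 1735, and chromosome 1, with 1 of 1586. With a median of 4 member loci per chromosome, these shares rest on few loci.

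Within chromosomes some member loci lay close together in number. On chromosome 16, 3 of the 7 lie between Glyma16g28150 and Glyma16g28600. Of the 13 other loci there with a mean of at least 1 RPKM, 2 were 2-fold or more toward CS and 1 toward CG. On chromosome 15, 4 lie between Glyma15g06270 and Glyma15g07710, but of the 87 other loci in that stretch with a mean of at least 1 RPKM, 4 were 2-fold or more toward CS and 16 toward CG. On chromosome 12, 4 member loci lie between Glyma12g06100 and Glyma12g07200, where the 69 other loci had a median log2 ratio of -0.34.

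**Figure D3:**
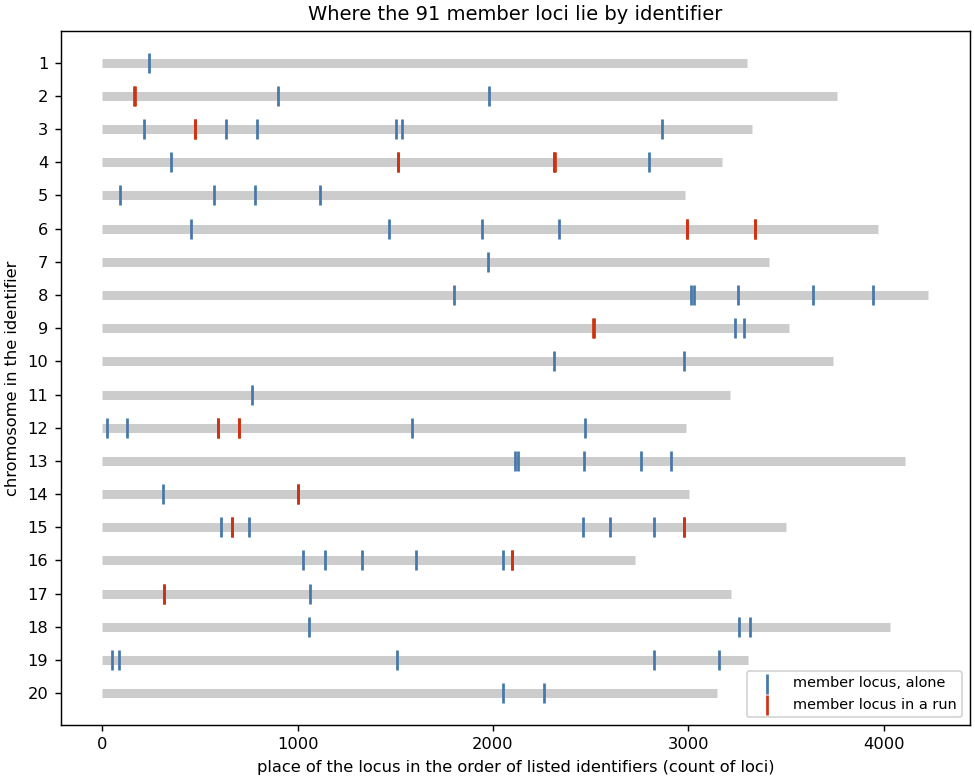
Place of the 91 member loci in the order of listed identifiers, given as a count of loci, for chromosomes 1 to 20. Grey bars are all listed loci of a chromosome, blue ticks are member loci alone and red ticks are the 29 member loci in runs. Member loci occur on every chromosome, and the runs lie on 10 of them.

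Member loci were often neighbours by number. A run was counted where at most 5 other listed loci lay between member loci, and 29 of the 91 member loci (31.9%) fell in 14 runs, 13 with 2 member loci and 1 with 3. No other locus lay between the members in 11 of the 15 neighbouring pairs. Counted singly, 22 member loci (24.2%) stood directly next to another member locus, while 0.303% of all loci with a mean of at least 1 RPKM stood next to a member locus. Among the 185 loci with a model that differed as much toward CG, 29 (15.7%) were in runs. When members under 10 RPKM in CS were left out, 11 of the 43 member loci that remained were in runs. Glyma04g16090 and Glyma06g38700, each in a run, had identical values and may count the same reads, which was not tested. How far neighbouring member loci share reads was not tested either, so the members of a run may not be separate measurements.

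In 12 of the 15 pairs the log2 ratios differed by less than 1, with a median difference of 0.52. The rule puts most members between 4 and 5, so that such small differences are no likeness particular to neighbours. The closest in ratio were Glyma14g10200.1 and Glyma14g10210.1. Glyma14g10200.1 had 42.5 RPKM in CS and 0.883 RPKM in CG, and Glyma14g10210.1 had 55.0 RPKM in CS and 1.12 RPKM in CG, with log2 ratios of 5.44 and 5.50. The widest differences were those of the BURP gene and its neighbours.

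Several other runs are directly adjacent pairs. Glyma12g07190.1 had a neighbour, Glyma12g07200.1, with 8.58 RPKM in CS and 0.0472 RPKM in CG. Glyma02g01840.1 had 36.7 RPKM in CS and 1.71 RPKM in CG, beside 7.37 and 0.131 RPKM for Glyma02g01850.1. Glyma17g03350.1 had 19.0 RPKM in CS and 0.818 RPKM in CG, beside 14.6 and 0.697 RPKM for Glyma17g03360.1. In each pair both loci were low in CG, while their CS levels differed by as much as several fold.

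In the pair on chromosome 6, Glyma06g42190.1 had 3.48 RPKM in CS and 0.0518 RPKM in CG, far below its neighbour Glyma06g42180.1 in CS. In the pair on chromosome 16, Glyma16g28590.1 had 8.65 RPKM in CS and 0.0947 RPKM in CG, beside Glyma16g28600.1. On chromosome 12, Glyma12g06100.1 had 3.03 RPKM in CS and 0.0281 RPKM in CG, and Glyma12g06110.1 had 5.64 and 0.0302 RPKM. The CG values of Glyma12g06100.1 and Glyma12g06110.1 rest on as few as 3 and 1 alignments.

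Other runs enclosed loci that differed less or the other way. Between Glyma03g04920 and Glyma03g04960, which had 7.33 RPKM in CS and 0.0252 RPKM in CG, lay Glyma03g04950 with 20.7 RPKM in CS and 7.63 RPKM in CG, and Glyma03g04940 with 0.733 and 1.37 RPKM. Between Glyma15g06820 (16.9 RPKM in CS and 0.542 in CG) and Glyma15g06860 (22.8 and 0.854 RPKM) lay 3 loci that were nearly silent in both libraries. Between Glyma09g32180 and Glyma09g32230 lay Glyma09g32200, with 0.977 RPKM in CS and 6.48 RPKM in CG. Glyma03g04940 and Glyma09g32200 were thus higher in CG, while the loci between Glyma15g06820 and Glyma15g06860 were too low to compare.

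**Figure D4:**
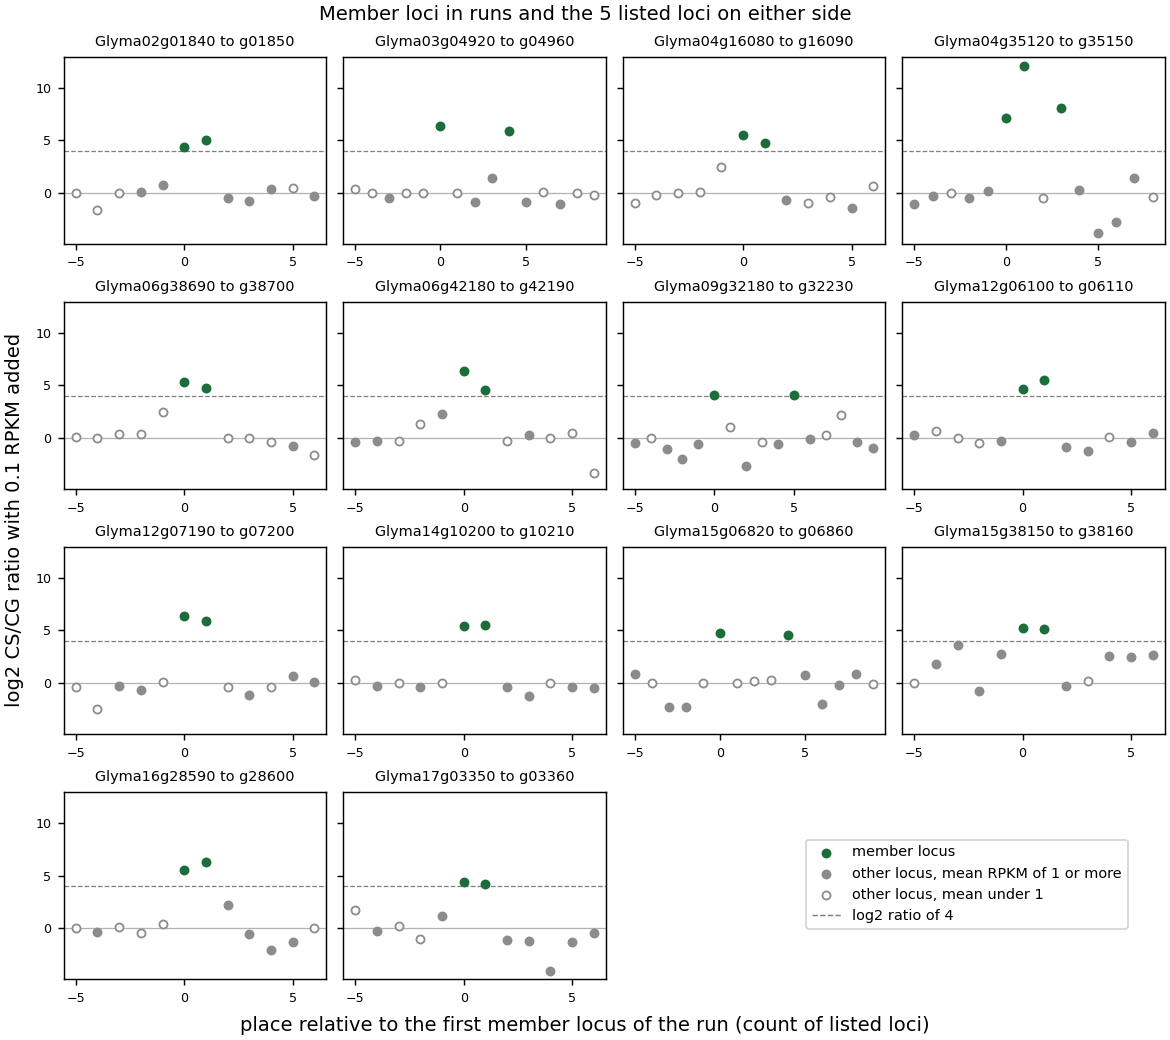
Log2 CS/CG ratio, with 0.1 RPKM added, of the member loci of the 14 runs (green) and of the 5 listed loci on either side and those between (grey, open where the mean RPKM is under 1), against the place in the order of identifiers. The dashed line marks a log2 ratio of 4. Most flanking loci lie near 0, while the run of Glyma15g38150 and Glyma15g38160 has several flanking loci between 1.78 and 3.59.

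The run with the most CS-higher surroundings was on chromosome 15. Glyma15g38150.1 had 18.2 RPKM in CS and 0.376 RPKM in CG, and Glyma15g38160.1 had 15.4 RPKM in CS and 0.351 RPKM in CG. Around them, Glyma15g38120 had 22.3 RPKM in CS and 1.76 RPKM in CG, and Glyma15g38140 had 29.2 and 4.15 RPKM. On the other side, Glyma15g38190 had 25.3 RPKM in CS and 4.28 in CG, Glyma15g38200 had 27.4 and 4.68, and Glyma15g38210 had 104.1 and 15.9. Glyma15g38130 and Glyma15g38170, which lie among them, had log2 ratios of -0.73 and -0.24, beside a median of -0.35 for all loci with a mean of at least 1 RPKM.

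Some members on different chromosomes had identical values. Glyma04g16090.1, Glyma06g38700.1 and Glyma16g23660.1 each had 2.61 RPKM in CS, from 99 alignments on a recovered length of 248 bases, and 0 in CG. Glyma03g02710.1 had the same CS value but 1.34 RPKM in CG and was no member. The loci before them in number were alike too. Glyma04g16080.1 had 9.82 RPKM in CS and 0.112 RPKM in CG, and Glyma06g38690.1 had 10.6 RPKM in CS and 0.174 RPKM in CG, both members, while Glyma16g23650 had 7.66 RPKM in CS and 1.69 RPKM in CG.

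The likeness went further back in 2 of these places. Glyma04g16070 had 0.842 RPKM in CS and 0.0722 RPKM in CG, and Glyma06g38680 had 0.780 and 0.0569 RPKM, with log2 ratios of 2.45 and 2.49, though their means were under 1 RPKM. Another 4 members shared a CS value with a model of another locus to within a relative difference of 2e-07, but not the CG value. These 4 differed widely from the other model in CG, such as 0.689 RPKM for Glyma06g14880.1 against 18.6 RPKM for Glyma20g36840.1. Reads that match several models were counted on each. Glyma04g16090.1, Glyma06g38700.1 and Glyma16g23660.1, equal in both libraries, may thus count the same reads, and this was not tested.

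Sister models of a locus agreed closely. Of the 91 member loci, 12 (13.2%) have more than 1 model in the files, against 17.6% of all loci with a mean of at least 1 RPKM. These 12 loci have 37 models, of which 28 are members, 7 have a mean of at least 1 without being members and 2 have a mean under 1. In 9 of the 12 loci every model is a member. With 1 RPKM added, 10 of the 28 kept a log2 ratio of at least 4. Sisters share sequence and so count the same reads, and their likeness is no independent measurement.

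Among sisters with a mean of at least 1, log2 ratios spanned from 0.02, in Glyma16g15790, to 0.31, in Glyma16g10880, with a median span of 0.10. The 3 models of Glyma16g10880 had 26.1, 20.2 and 25.1 RPKM in CS and 0.195, 0.178 and 0.177 RPKM in CG. The 3 models of Glyma20g30620 had 39.6, 33.5 and 35.5 RPKM in CS and 1.40, 1.26 and 1.29 RPKM in CG. Levels thus varied more between some sisters than the ratios did. In Glyma08g18200, for example, the models had 36.1, 17.4 and 38.6 RPKM in CS and 0.996, 0.478 and 1.06 RPKM in CG, and their log2 ratios lay from 4.92 to 5.06.

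Glyma17g03350 was the locus whose models differed. Its first and second models were members, with 19.0 and 17.3 RPKM in CS and 0.818 and 0.809 RPKM in CG. Glyma17g03350.3 had 1.48 RPKM in CS and 0.313 RPKM in CG, and Glyma17g03350.4 had 0.747 RPKM in CS and 0.176 RPKM in CG. Their log2 ratios were 1.94 and 1.62, and at these low levels the added 0.1 RPKM lowers the ratio. The deposited CS and CG values, without it, also differed by a smaller factor than those of the first and second models.

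**Figure D5:**
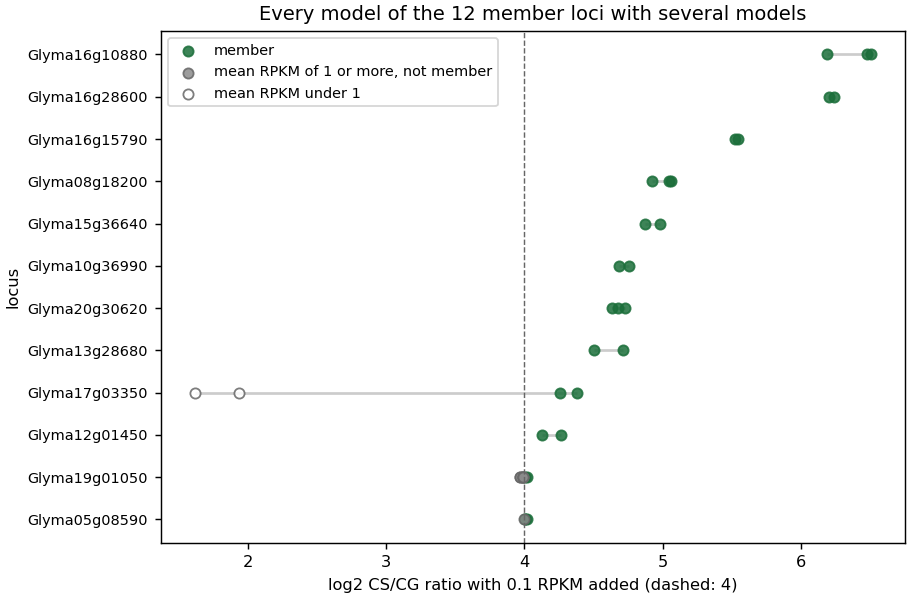
Log2 CS/CG ratio, with 0.1 RPKM added, of each of the 37 models of the 12 member loci that have several models. Green points are members, grey points have a mean of at least 1 RPKM without being members, and open points have a mean under 1. Only Glyma17g03350 has models far from its members, and Glyma05g08590 and Glyma19g01050 straddle the dashed threshold of 4.

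The loci around the members were mostly alike in both lines. The nearest non-member loci with a mean of at least 1 RPKM on each side of the members, 155 in all, had a median log2 ratio of -0.23, against -0.35 for all 35008 non-member loci. At least 2-fold higher in CS were 12 of them (7.74%), against 5.42% of all non-member loci, and 13.5% against 9.27% once CG was scaled to a median ratio of 1. At least 2-fold higher in CG were 23 (14.8%), against 15.3%. At least 4-fold higher in CS were 5 of the 155 (3.23%), against 1.28% of all non-member loci. They were Glyma15g38140, Glyma06g42170, Glyma16g28610, Glyma16g23650 and Glyma02g09210. Glyma06g42170 had 13.0 RPKM in CS and 2.54 RPKM in CG, and Glyma16g28610 had 67.6 and 14.7 RPKM, each beside a run described above.

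A few neighbours have a name in the study's tables. Glyma08g45540, a Kunitz trypsin inhibitor (KTi2), one of the protease inhibitors for which soybean is known, had 78.1 RPKM in CS and 52.5 RPKM in CG. The next locus, the member Glyma08g45550.1, had 46.8 RPKM in CS and 1.14 RPKM in CG, and Glyma08g45560 after it had 45.4 RPKM in CS and 11.6 in CG. On the other hand, Glyma17g03390, a COBRA-like gene (a family that acts in cell wall growth in Arabidopsis) close to the member Glyma17g03360, had 2.51 RPKM in CS and 42.2 RPKM in CG, a log2 ratio of -4.02. Glyma13g28630, a beta-amylase (an enzyme of starch breakdown) near Glyma13g28680, had 5.005 RPKM in CS and 56.0 RPKM in CG.

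The study's own gene lists held few members in number, while 0.259% of all loci with a mean of at least 1 RPKM were members. Of such loci, 1 of 4 in its BURP list and 2 of 111 among its tags higher in CS were members. Among its tags higher in CG, 0 of 21 were. Of the 7 BURP loci it lists, 4 had a mean of at least 1, and all 4 were at least 2-fold higher in CS (5.67% of all loci were), with a median log2 ratio of 2.75 against -0.35 for all loci. Only Glyma04g35130 was a member. The rule chose it by this same ratio, so the count and the median include a value set by the rule. The study listed these loci for their similarity to that gene. Glyma14g20440 had 66.1 RPKM in CS and 6.79 RPKM in CG, a log2 ratio of 3.26. The log2 ratios of Glyma14g20450 and Glyma04g08410 were 2.23 and 1.34. Of the 17 orthologs of Arabidopsis trichome regulators, 0 were members and 0 were at least 2-fold higher in CS, while 4 of the 13 with a mean of at least 1 were at least 2-fold higher in CG (15.2% of all loci were).

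The study also lists tags that it found higher in CS, from other plants of the same lines, and these tags point to 114 loci. The BURP gene and the cytochrome P450 CYP84A16 were the 2 members among them. Across the 111 loci of this list whose mean reached 1 RPKM, the median log2 ratio in the RNA-Seq libraries was -1.80. A difference of 2-fold or more toward CS was found for 16 of these 111 and toward CG for 62, against 5.67% and 15.2% of all loci. The tags are 16-base sequences matched without mismatches, from RNA of shoot tips and leaves. RPKM counts reads along the whole model in shoot tips. The measures thus differ in kind, and the reason for the difference in direction was not tested.

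The recovered lengths of the members had a median of 809 bases, with a range from 78 to 3109. The median of all models with a mean of at least 1 was 1235 bases. The recovered length is the smallest that fits the deposited values, and the true length can be a multiple of it. For the 12 members at 0 in CG only the CS value sets it, so the medians do not show that members are shorter.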

How the data were processed

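RNA-Seq of 1 library per line was analysed. Per the paper's methods, the authors mapped 75-base reads with Bowtie (version not given in the sources used here) to the Glyma cDNA models of Williams 82, with up to 3 mismatches and 25 alignments per read, and deposited RPKM values. The use of strand is not given there. The members and lists were chosen with earlier results of these data known. No test of the lines was possible with 1 library each. Whole alignments were recovered from the steps of the RPKM values, as the smallest length of at least 75 bases that made both numbers whole, for 69117 of 69123 models above 0. They gave the exact 95% intervals and the limit of 3 alignments, which cover counting error only. Chromosomes and the order of loci were read from the identifiers, and no coordinates were used. Functions were taken from the study's tables, since the RefSeq gene table (Glycine_max_v4.0) matched 0 identifiers. Lists by words in gene descriptions, and the markers of meristem, nodule, seed and flower, were therefore not run.

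The models named are those with the 20 largest ratios, the 10 highest CS levels, in runs, with sister models, in the study's tables, and the 3 on either side of the threshold. Other loci, such as neighbours with large ratios, were chosen after their values were seen. The scripts were tested on simulated data. The alternatives were other pseudocounts, thresholds, filters, scalings and run definitions. Tables were handled in pandas 2.3.3 and NumPy 2.4.6 under Python 3.11.15. Intervals came from SciPy 1.17.1, and matplotlib 3.10.9 drew the plots.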

Additional observations from a re-analysis of the deposited data

How the results depend on the processing

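No paired analysis was possible because CS and CG have 1 library each, so that leaving out a library was not possible either. The number of members depends on the threshold and on the added constant. The 107 models became 23 with a pseudocount of 1 and 139 with 0.01, 34 with a mean RPKM of 10 or more, 115 with no filter, 230 at a log2 ratio of 3 or more and 42 at 5 or more. With a pseudocount of 1 the median log2 ratio of the members was 3.27 and the lowest 1.55, and none turned toward CG. Median-centring, in which CG values were multiplied by 0.788, gave 141 models, and scaling to the same 75th percentile gave 145, with all 107 members among them. Of the models that differ 16-fold in either direction, 33.0% were higher in CS as deposited, 47.8% after median-centring and 46.9% with the same 75th percentile. Member loci in runs, 29 as reported, were 22 with no locus between, 31 with up to 10, 36 after median-centring, 45 at a log2 ratio of 3 or more and 11 among members of 10 RPKM or more in CS, a limit chosen after seeing the data. The share of nearest loci at least 2-fold higher in CS rose from 7.74% to 13.5% after median-centring, and that of all non-member loci from 5.42% to 9.27%. Members with a sister model fell from 28 to 10 with a pseudocount of 1. Chromosome 16 had the highest share of members among its models, and chromosome 15 did after median-centring. With 10 or fewer alignments in CG for 38 members, the depth limits the size of a ratio more than its direction.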
